A study of Mus musculus with 24 samples.

Results

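Mouse bone marrow cultures grown with GM-CSF and FLT3L (FL cultures) were compared with cultures grown with GM-CSF alone (GM cultures) after both had spent 24 h in DMSO, the solvent of the drug AZD5582 that the series also tested. The comparison asks which differences between the culture types are present once both have passed through the solvent control. It uses 6 of the 24 RNA-seq libraries of the series: the FL libraries whose titles end in DMSO, which carry the culture numbers 91, 94 and 95, and the GM libraries whose titles end in DMSO, which are numbered 1, 2 and 3 under the single culture label DC105. The 6 libraries of the same cultures taken before any treatment (t0) were used to say which differences were there at the start.

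FL cultures had FLT3L at 200 ng/ml beside GM-CSF at 20 ng/ml and reached their t0 harvest on day 16, and GM cultures had GM-CSF at 20 ng/ml and reached it on day 8. The cells came from the hind-leg marrow of C57BL/6JRj mice, either wild-type or carrying Cas9-EGFP, and the sources used here do not say which mouse gave which culture. No library in the comparison received AZD5582. Because FLT3L, culture age and culture number all differ between the groups, their parts in any difference cannot be told apart, and the p-values measure only the spread between these libraries.

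FLT3L binds the receptor FLT3 on marrow progenitors and drives them towards dendritic cells. With GM-CSF it yields many cells of the type 1 conventional lineage (cDC1), which express XCR1 and CLEC9A, depend on the transcription factors BATF3 and IRF8 and are specialised in presenting antigen from dead cells to CD8 T cells. GM-CSF alone yields a mixture of monocyte-derived dendritic cells and macrophages. Dendritic cells taken out of their growth conditions often mature without added stimulus: they induce CCR7, the receptor that guides them to lymph nodes, and the co-stimulatory ligands that T cells need.

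The FL library of culture 91 stood apart after DMSO. Reads counted on genes ran from 27012555 to 34694241 in the FL DMSO libraries and from 45268073 to 81007086 in the GM DMSO libraries. The biological coefficient of variation, the relative spread between libraries of a group beyond counting noise, was 0.469 for FL after DMSO and 0.152 for GM after DMSO, against 0.224 and 0.107 at t0. Spearman's rho between gene levels was 0.937 for FL cultures 91 and 94 and 0.958 for 91 and 95, against 0.985 for 94 and 95, and 0.991 to 0.994 between GM DMSO libraries. Culture 91 had the lowest mitochondrial share of the 6 libraries, 1.96%, against 3.20% to 4.79% in the other 5. Results that rest on this library are therefore given with and without it.

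**Figure D1:**
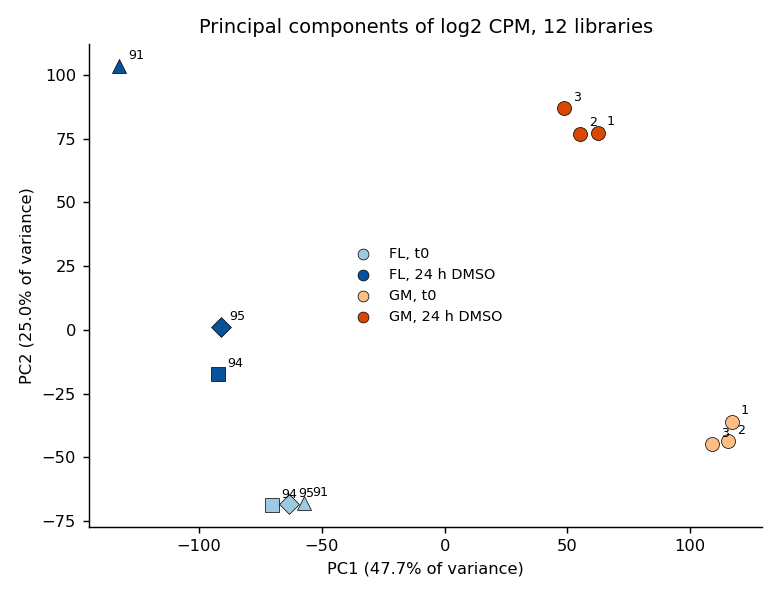
Principal components of log2 CPM in the 12 libraries (PC1 on the x axis, 47.7% of the variance; PC2 on the y axis, 25.01%), with one point per library and FL cultures marked by culture. FL and GM libraries lie apart on PC1. On PC2 the FL DMSO library of culture 91 lies at 103.5, above the GM DMSO libraries at 77.0 to 87.0, while those of cultures 94 and 95 lie at -17.4 and 1.23.

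In the main fit, which pools the spread over the groups, most genes called at t0 were called after DMSO in the same direction. Of 16516 genes tested, 6500 were called after DMSO (39.4% of those tested, at an adjusted p under 0.05 by the quasi-likelihood test of edgeR, adjusted by the Benjamini-Hochberg method, as for every adjusted p here): 3481 were higher in FL (21.1%) and 3019 lower (18.3%). The median log2 difference over all genes tested, FL minus GM, was 0.06. Of the 6500, 3947 differed at least 2-fold, 2204 of them upward. Without the DMSO library of culture 91, 7875 of 17133 genes were called (46.0%), 3846 higher (22.4%) and 4029 lower (23.5%).

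At t0, 6530 genes were called, which is 39.5% of those tested, 3321 higher in FL (20.1%) and 3209 lower (19.4%). This count and that after DMSO rest on a spread pooled over the 4 groups. In limma voom with quality weights by group, 4232 genes were called after DMSO and 9355 at t0. There 3713 genes were called in the same direction at both times, which is a minority of its t0 calls. In the main fit, 4425 of the 6530 genes called at t0 were called in the same direction after DMSO. This is 67.8% of the t0 calls and 68.1% of the DMSO calls. The 2 comparisons share no library, but they are not independent. They come from 1 fit with a shared spread for each gene, and the FL cultures are the same at both times. A further 35 genes were called in opposite directions, 2070 at t0 only and 2040 after DMSO only. A call at one time and not at the other does not show that the difference changed, so the change of the culture difference (DMSO minus t0) was tested itself. It was called for 261 genes (1.58%), 95 upward in FL relative to GM (0.575%) and 166 downward (1.01%), with 2664 at an unadjusted p under 0.05. The titles give each FL culture the same number at t0 and after DMSO, so these libraries are paired, while the GM libraries share a replicate number under 1 culture label. With this number as a replicate block, 180 changes were called when it was a fixed term in edgeR and 493 when it was a random term in limma voom.

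The size of that last count depended on single libraries. Without the FL DMSO library of culture 91 it was 3139 (18.3% of genes tested), 1153 upward (6.73%) and 1986 downward (11.6%). It was 227 without FL DMSO culture 94, 194 without 95, 109 without GM DMSO library 1, 78 without library 2 and between these without library 3. Among t0 libraries it was 154, 160 and 75 without FL cultures 91, 94 and 95, and 75, 32 and 45 without GM libraries 1, 2 and 3.

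**Figure D2:**
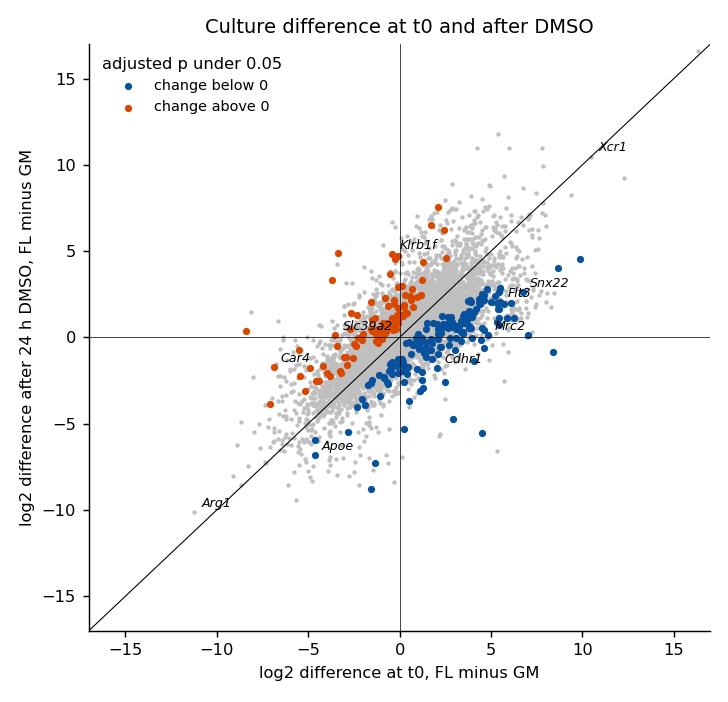
Log2 difference between FL and GM at t0 (x axis) against that after 24 h in DMSO (y axis), one point per gene tested. Coloured points are genes whose change between the time points was called, downward in blue and upward in orange. All other genes are grey, whether or not their culture difference was called. The diagonal line marks equal differences at both times. Labelled genes away from it, such as Car4 and Mrc2, had a difference that changed between the time points.

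The cDC1 genes marked the FL cultures after DMSO, although fewer were called than at t0. Of 27 genes of the cDC1 list, 16 were higher in FL (against 21.1% of all genes tested) and 1 was lower (against 18.3%). The median log2 difference was 1.38. At t0 the list had 22 higher, none lower and a median of 2.95. In bulk libraries, fewer cells of a type and less RNA per cell cannot be told apart. Without the DMSO library of culture 91 the list had 18 higher and 2 lower, with a median of 1.10, and none was lower without FL culture 94 or GM library 1 and 2 were without FL culture 95.

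Xcr1, the chemokine receptor that defines the lineage, stood at 8.45, 17.1 and 29.3 CPM (read counts scaled to library size) in FL cultures 91, 94 and 95 and at 0, 0.0265 and 0 CPM in GM libraries 1, 2 and 3. These were 1805 counts against 2, a ratio of 1810 with a 95% counting interval of 500.2 to 14954. Its fitted log2 difference was 10.46 ± 0.93 (SE), adjusted p = 9.5e-06. All FL libraries lay far above all GM libraries, although the FL level at t0 was higher still, at 392, 111 and 154 CPM.

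Clec9a, the receptor for actin exposed on dead cells, was measured at 38, 51.6 and 82.5 CPM in the FL cultures and 0.267, 0.504 and 0.795 CPM in the GM libraries (log2 difference 6.83 ± 0.45, adjusted p = 1.3e-06). Cadm1, an adhesion molecule of cDC1, was at 30, 36.6 and 57.6 CPM against 0.436, 0.623 and 1.01 CPM (5.95 ± 0.38, adjusted p = 1.2e-06). Itgae, which encodes the integrin CD103, was at 17.6, 95.6 and 163 CPM against 1.24, 1.55 and 0.337 CPM (6.42 ± 0.87, adjusted p = 2.0e-04). In all of these the groups did not overlap, and culture 91 was the lowest FL library.

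The transcription factors of the lineage differed less. Batf3 was at 121, 102 and 115 CPM in FL and 51.8, 59.1 and 46.3 CPM in GM, a log2 difference of 1.10 ± 0.14 (adjusted p = 1.0e-04), and Zbtb46, which marks conventional dendritic cells, differed by 1.38 ± 0.27 (adjusted p = 0.002). Irf8 was at 1582, 544 and 764 CPM in FL and 605, 748 and 716 CPM in GM. The groups overlapped and the difference did not pass the test, at 0.48 ± 0.35 (adjusted p = 0.3).

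Irf8 and Flt3 were among 5 of 27 cDC1 genes whose difference was smaller after DMSO than at t0 by the test of the change itself. Of all genes tested, 1.01% changed downward. No member of the list changed upward (against 0.575%). Without the DMSO library of culture 91 the change was called downward for 14 (against 11.6%) and upward for 4 (against 6.73%). At t0 Irf8 had stood at 2009, 1017 and 1086 CPM in FL against 162, 172 and 151 CPM in GM, and its change was -2.60 ± 0.51 (adjusted p = 0.03). Flt3, the receptor for FLT3L, was at 307, 175 and 202 against 4.03, 5.37 and 5.61 CPM at t0 and at 697, 217 and 325 against 82.8, 107 and 115 CPM after DMSO. Its culture difference was 2.02 ± 0.38 after DMSO and changed by -3.49 ± 0.53 (adjusted p = 0.015). In both genes the GM level was several times its t0 value after DMSO.

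The change of Irf8 did not pass the test without any one of FL DMSO culture 95, FL t0 cultures 91 or 95, or any one of the GM libraries, at adjusted p of 0.06 to 0.093, and that of Flt3 did not pass without GM t0 library 2 (0.055). Without the DMSO library of culture 91, both were larger (-3.26 and -4.20). Snx22, a sorting nexin of cDC1, showed the same pattern, with a difference of 6.74 ± 0.57 at t0 and 2.61 ± 0.46 after DMSO and a change of -4.12 ± 0.68 (adjusted p = 0.017), which did not pass without GM t0 library 1, 2 or 3. Gcsam and Mrc2, described further on, changed in the same direction.

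Other cDC1 genes did not separate the cultures after DMSO. Wdfy4, needed for cross-presentation, was at 29.4, 150.5 and 241 CPM in FL and 157, 165 and 118 CPM in GM (difference -0.06 ± 0.56, adjusted p = 0.94). Tlr3, a sensor of double-stranded RNA, was at 1.35, 14.1 and 18.6 against 10.6, 9.9 and 11.5 CPM (0.10 ± 0.64, adjusted p = 0.92). In both, culture 91 lay below all GM libraries while cultures 94 and 95 lay within or above them. Plpp1, a lipid phosphatase, was the 1 list member called lower, at -1.12 ± 0.38 (adjusted p = 0.036).

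The monocyte and macrophage genes were lower in FL, as they had been at t0. Of 39 tested list members, 35 were lower in FL after DMSO (against 18.3% of all genes tested) and 1 was higher (against 21.1%). The median log2 difference was -3.70. At t0 the counts were 36 and 1 and the median -3.46. The summed level of the list was 3962 to 7745 CPM in the FL libraries and 48834 to 56474 CPM in the GM libraries. Without culture 91 it had 36 lower and 2 higher.

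Lyz2, which encodes lysozyme, was measured at 843, 993 and 1238 CPM in the FL cultures and 31485, 25963 and 26662 CPM in the GM libraries, a log2 difference of -4.77 ± 0.22 (adjusted p = 4.3e-07). Csf1r, the receptor for the macrophage growth factor M-CSF, was at 59.6, 160.1 and 226 against 1868, 1542 and 1559 CPM (-3.48 ± 0.38, adjusted p = 4.2e-05). Mertk, a receptor for the uptake of apoptotic cells, was at 8.23, 10.4 and 12.6 against 106, 95.6 and 116 CPM (-3.34 ± 0.17, adjusted p = 4.9e-07). Every FL library lay below every GM library in each of these genes.

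Other macrophage genes of the panel were lower in FL too. Cd14, the co-receptor for bacterial endotoxin, differed by -4.84 ± 0.36, Adgre1 (F4/80) by -2.75 ± 0.44 and Mrc1 (the mannose receptor) by -3.87 ± 0.49. C1qa, a chain of complement C1q, differed by -5.00 ± 0.29. Arg1, which breaks down arginine, was at 0, 0.0685 and 0.192 CPM in FL and 114, 180.2 and 34.7 CPM in GM, a fitted difference of -10.14 ± 0.98. These 5 genes had an adjusted p of at most 5.5e-04 and groups that did not overlap.

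Timd4, a receptor for phosphatidylserine on macrophages, was the list member higher in FL. It was at 14.4, 3.53 and 7.56 CPM in the FL libraries and had no count in the GM libraries, which is 784 counts against 0 and at least 524-fold higher when 3 counts are taken as the floor over the group. At t0 it was at 0.298, 0.392 and 0.322 CPM in FL. Several of the largest negative differences after DMSO were also in genes that macrophages are known to express: Siglec1 (-6.20), Pf4 (-6.63), Adgre4 (-5.96), Ms4a8a (-5.95) and Retnla (-6.21). The matrix protease gene Mmp2 (-6.05), Pmp22 (-5.76) and Gbgt1 (-7.82) were among them too.

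Lipid genes followed the macrophage genes. Of 23 tested genes of lipid export and of the receptors LXR and PPARg, 22 were lower in FL after DMSO and none was higher. The shares of all genes tested were 18.3% and 21.1%. The median of the list was -1.95, and t0 had 17 lower. Without FL culture 94, 1 member was called higher. Apoe, the lipid carrier, was at 8.27, 7.46 and 6.47 CPM in FL and 999.7, 646 and 846 CPM in GM, a log2 difference of -6.81 ± 0.32 (adjusted p = 4.3e-07). At t0 its values were 5.19, 3.14 and 3.24 and 129.7, 79.9 and 81.3 CPM, so the level was above its t0 value in both culture types, and by more in GM. The culture difference of Apoe changed by -2.16 ± 0.36 (adjusted p = 0.017), a call that was lost without GM t0 library 2 (0.062) or 3 (0.06).

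Abca1, which exports cholesterol, was at 12.2, 11.7 and 16.1 CPM against 247, 233 and 328 CPM (difference -4.34 ± 0.20). Lpl, which hydrolyses triglycerides, was at 116, 135 and 201 against 2879, 2421 and 2815 CPM (-4.17 ± 0.25), and Pltp, the phospholipid transfer protein, at 4.21, 3.01 and 4.17 against 269.9, 251 and 244 CPM (-6.07 ± 0.37). No FL library reached a GM library in these genes. Nr1h2, which encodes LXR beta, was the member that did not pass the test, at 0.45 ± 0.26 (adjusted p = 0.19), but was called at 0.71 without FL culture 94. Across the alternative fits its difference ran from -0.06 to 0.71. Among genes outside the list, Lipg, the endothelial lipase, went the other way, at 0.535, 60.2 and 21.4 CPM in FL and 0.0843, 0.212 and 0.217 CPM in GM (7.34 ± 1.31, adjusted p = 0.0012), with culture 91 far below the other FL cultures.

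**Figure D3:**
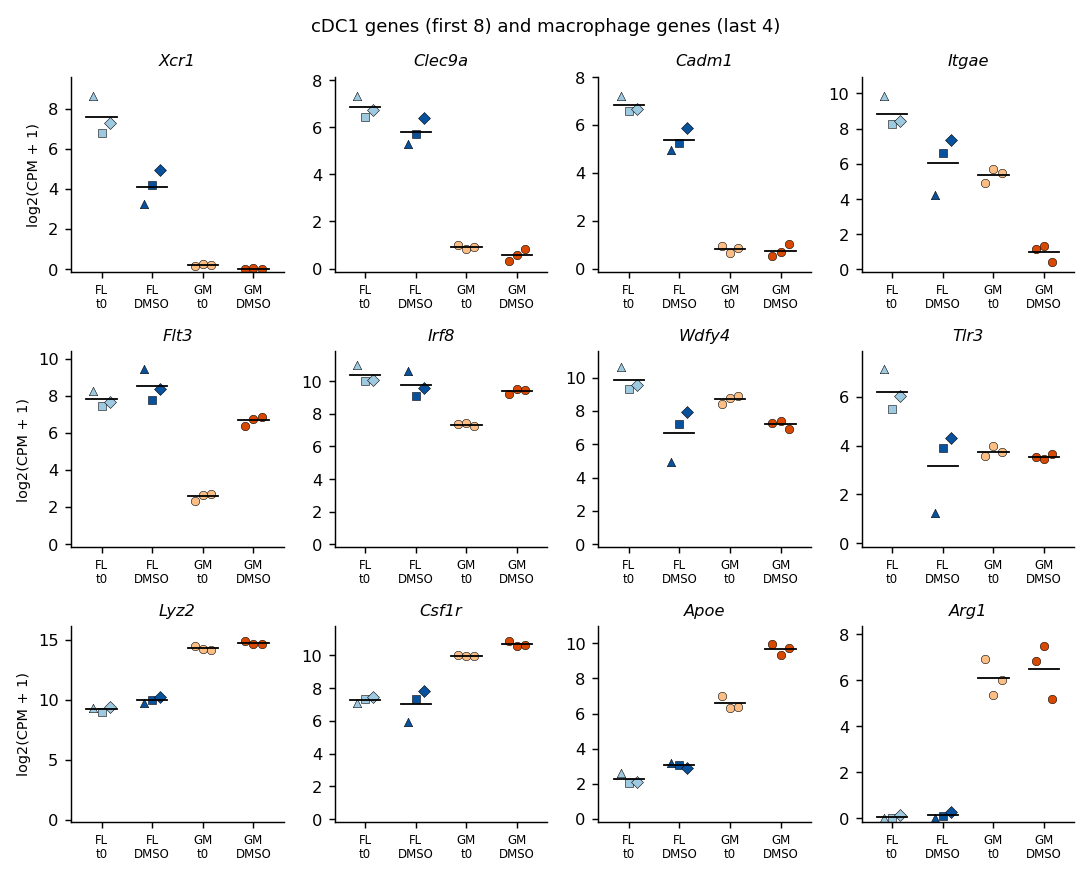
Log2(CPM + 1) of cDC1 and macrophage genes in each library at t0 and after DMSO; triangles, squares and diamonds are FL cultures 91, 94 and 95, circles are GM libraries, and lines are group means. Xcr1 and Clec9a separate FL from GM at both times, Flt3 and Irf8 lie closer together after DMSO, and Lyz2, Csf1r, Apoe and Arg1 are low in FL throughout.

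Lysosome and phagocytosis genes were also lower in FL. Of 44 genes, 38 were lower after DMSO (against 18.3% of all genes tested) and none was higher (against 21.1%), with a median of -1.53. At t0, 39 were lower and the median was -1.25. Without culture 91, 42 were lower and none higher. Part of this set is known to carry, near the transcription start, the CLEAR element GTCACGTG, to which the transcription factors TFEB, TFE3 and MITF bind.

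Promoter windows of 300 bases (250 before and 50 after the annotated start) from RefSeq were searched on both strands for 6 motifs. These were GTCACGTG, the E-box CACGTG that lies within it, the ETS-IRF composite (GGAA and GAAA with any 2 bases between), the AP-1 site TGANTCA, the PU.1 site GAGGAAGT and the NF-kB site. GTCACGTG was in the windows of 9 of the 34 lysosome genes that have one (26.5%), against 504 of 11257 tested genes (4.48%) and 689 of 27025 genes in the table (2.55%). Among all genes called lower in FL it was in 118 of 2283 (5.17%) and among those called higher in 104 of 2509 (4.15%). A match describes the letters and not binding.

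The windows of 4 of the 9 genes are shown because they include differences that were large, intermediate and not called. Capitals mark GTCACGTG or, on the other strand, CACGTGAC. The coordinates are those of GRCm38.p6, 5′ to 3′ on the strand of the gene: Ctsd at chr7:142387778-142388077 (minus strand), Naglu at chr11:101069844-101070143 (plus), Mcoln1 at chr8:3500269-3500568 (plus) and Lgmn at chr12:102439043-102439342 (minus).
Ctsd: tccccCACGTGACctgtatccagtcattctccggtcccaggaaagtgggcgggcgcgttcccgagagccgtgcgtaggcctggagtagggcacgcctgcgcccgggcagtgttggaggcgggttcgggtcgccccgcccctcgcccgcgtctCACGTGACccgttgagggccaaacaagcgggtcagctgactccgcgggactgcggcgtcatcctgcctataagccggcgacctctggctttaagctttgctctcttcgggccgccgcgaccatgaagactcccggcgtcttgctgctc
Naglu: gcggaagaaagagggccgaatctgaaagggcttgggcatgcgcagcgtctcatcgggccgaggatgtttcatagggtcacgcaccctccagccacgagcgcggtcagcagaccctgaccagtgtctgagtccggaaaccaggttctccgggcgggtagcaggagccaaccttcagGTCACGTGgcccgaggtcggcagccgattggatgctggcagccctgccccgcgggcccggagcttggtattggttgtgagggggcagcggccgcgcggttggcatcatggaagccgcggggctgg
Mcoln1: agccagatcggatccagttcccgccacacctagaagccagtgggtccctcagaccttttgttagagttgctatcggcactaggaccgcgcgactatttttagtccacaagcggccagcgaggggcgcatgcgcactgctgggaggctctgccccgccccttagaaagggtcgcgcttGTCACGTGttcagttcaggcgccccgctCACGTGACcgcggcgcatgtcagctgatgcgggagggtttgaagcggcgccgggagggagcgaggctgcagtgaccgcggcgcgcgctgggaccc
Lgmn: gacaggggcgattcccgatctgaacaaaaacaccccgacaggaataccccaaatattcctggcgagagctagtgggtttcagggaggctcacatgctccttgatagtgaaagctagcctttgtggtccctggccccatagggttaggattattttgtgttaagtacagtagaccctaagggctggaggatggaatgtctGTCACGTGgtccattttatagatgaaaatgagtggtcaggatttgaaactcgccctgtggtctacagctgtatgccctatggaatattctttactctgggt

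The 9 genes with the element did not all differ between the cultures. Ctsd, the aspartic protease cathepsin D, has the element on 2 sites and was at 329.7, 451 and 489 CPM in FL against 5145, 4560.0 and 5889 CPM in GM (difference -3.62 ± 0.19, adjusted p = 4.9e-07). Naglu, which degrades heparan sulfate, has 1 site and was at 15.1, 21.4 and 28.2 against 88, 82.2 and 89.7 CPM (-2.01 ± 0.19, adjusted p = 1.4e-05). Mcoln1, the lysosomal calcium channel, has 2 sites and was at 34.3, 32.6 and 34.3 against 31.3, 29.1 and 32.2 CPM (0.13 ± 0.11, adjusted p = 0.39). The Ctsd and Naglu levels of the groups lay apart, and those of Mcoln1 were within a few CPM of each other.

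Lgmn, an asparagine-specific protease of the endosome, was at 1254, 329 and 453 CPM in FL and 553, 598 and 721 CPM in GM. Culture 91 lay above all GM libraries and cultures 94 and 95 below them. The difference was 0.12 ± 0.38 (adjusted p = 0.83) with culture 91 and -0.72 (adjusted p = 0.0013) without its DMSO library. The other 5 genes with the element were called lower in FL: Ctsa (-2.80), Gla (-2.09), Sgsh (-2.02), Lamp1 (-1.25) and Glb1 (-0.79).

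Of the factors that read the element, Mitf was at 3.39, 5.27 and 6.03 CPM in FL and 56, 46.8 and 58.1 CPM in GM (-3.45 ± 0.21, adjusted p = 8.7e-07). Tfeb was at 13.9, 15.4 and 21.5 CPM in FL and 58.1, 48.3 and 47 CPM in GM (-1.59 ± 0.16, adjusted p = 2.7e-05), and at 29.9, 27.9 and 32.3 and 41.6, 41.6 and 41.8 CPM at t0. Its difference changed by -1.12 ± 0.23 between t0 and DMSO (adjusted p = 0.032). Lipa, the lysosomal acid lipase, changed by -1.50 ± 0.28 (adjusted p = 0.026), from -2.06 at t0 to -3.56 after DMSO. The change call of Tfeb was lost without any one of the 6 t0 libraries, GM DMSO library 1 or 2 or FL DMSO culture 94, with adjusted p up to 0.099. That of Lipa was lost without FL t0 culture 91 or 95, any one of the GM t0 libraries or GM DMSO library 1 or 3, with adjusted p up to 0.086.

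Maturation genes divided into those that differed in every FL library and those that rested on culture 91. Of 50 mature migratory dendritic cell genes, 24 were higher in FL after DMSO (48%, against 21.1% of all genes tested) and 3 lower (6%, against 18.3%), with a median of 0.82. At t0, 38 were higher and 4 lower, with a median of 1.94. The change itself was called downward for 7 (against 1.01% of all genes tested) and upward for none (0.575%). Without culture 91 it was called downward for 38 (11.6%) and upward for 2 (6.73%). After DMSO, 18 were higher and 6 lower without that library, and the median was 0.22. Leaving out FL culture 94 gave 36 higher, leaving out GM library 1 gave 12, and the 3 lower genes became 2 without FL culture 94 or 95 or any one of the GM libraries. The summed level of the list was 27342 to 76634 CPM in FL and 22969 to 28509 CPM in GM, against 13813 to 16424 and 5828 to 6472 at t0.

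Ccr7 showed the dependence on 1 culture. It was at 7698, 1605 and 2267 CPM in FL cultures 91, 94 and 95 and 1568, 1867 and 1997 CPM in GM libraries. Culture 91 was far above the rest, and the other FL cultures lay in the range of the GM libraries or just above. The difference was 1.09 ± 0.44 (adjusted p = 0.071), 0.05 without culture 91 (adjusted p = 0.82), and called without FL culture 94 (1.46) or 95 (1.35). At t0 all FL cultures, at 1115, 1141 and 1159.9 CPM, had been above all GM libraries, at 240.2, 298 and 226 CPM (2.16 ± 0.46, adjusted p = 0.0031).

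Fscn1, which bundles actin in migrating dendritic cells, had a difference of 2.99 ± 0.32 at t0 and 0.73 ± 0.30 after DMSO (adjusted p = 0.07), a change of -2.26 ± 0.42 (adjusted p = 0.026). That change was not called without any one of the GM t0 libraries, GM DMSO library 2 or 3, FL t0 culture 94 or 95 or FL DMSO culture 95, with adjusted p up to 0.084, and not with the fixed replicate block (0.058), and was -2.86 without culture 91. Il12b, a subunit of interleukin 12, was at 1965, 112 and 225 CPM in FL and 138, 197 and 256 CPM in GM after DMSO. Its difference of 1.96 ± 0.82 (adjusted p = 0.077) was -0.27 without culture 91. The chemokine Ccl22 was at 8043, 4445 and 5420.5 against 4499, 6141 and 3844 CPM (0.31 ± 0.23, adjusted p = 0.32), with overlapping groups.

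The T cell ligands CD80 and CD86 were higher in every FL library. Cd80 was at 254, 289.6 and 305 CPM in FL and 51.8, 55.4 and 55.2 CPM in GM (2.39 ± 0.13, adjusted p = 5.6e-07), and 2.41 without culture 91. Cd86 was at 294, 384 and 404 against 123, 128 and 118 CPM (1.55 ± 0.14, adjusted p = 1.1e-05). Il15ra, which presents interleukin 15, was at 204, 92.7 and 99.1 against 23.2, 26.6 and 23.2 CPM (2.44 ± 0.26, adjusted p = 3.5e-05). The groups lay apart in all 3 genes, with culture 91 the lowest FL library for Cd80 and Cd86 and the highest for Il15ra.

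Other members moved as follows. Rabgap1l differed by 1.81 ± 0.17 and Cd83, a maturation marker, by 1.52 ± 0.34 (0.83 without culture 91), both called with and without that library. Cd40, the receptor for T cell help, was at 247, 75.7 and 94.8 against 53.5, 80.5 and 68.1 CPM, and its call (1.05 ± 0.36, adjusted p = 0.036) was lost without culture 91 (0.29, adjusted p = 0.16) and without any one of the GM libraries. Cd274 (PD-L1) was called at 1.02 ± 0.31 (adjusted p = 0.023), was at 0.36 without culture 91, and was not called without any one of the GM libraries. H2-M2, a non-classical MHC gene, at -1.74 ± 0.22, and Fabp5, a fatty acid carrier, at -1.05 ± 0.16, were lower in FL in every library.

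Of 29 co-stimulatory and checkpoint genes, 12 were higher in FL (41.4%, against 21.1% of all genes tested) and 7 lower (24.1%, against 18.3%). The median was 0.26. Without culture 91 the counts were 11 and 10, where 22.4% of all genes were higher and 23.5% lower. Vsir, the checkpoint VISTA, differed by -2.45 ± 0.24 and Sirpa, the receptor for the signal CD47, by -2.63 ± 0.18, both lower in every FL library. Of 30 NF-kB pathway genes, 9 were higher (30%) and 3 lower (10%) after DMSO, against 21.1% and 18.3% of all genes tested. The median was 0.49, and t0 had 21 higher and 1 lower. The change since t0 was called downward for 2 of the 30 (against 1.01% of all genes tested) and upward for none (0.575%). Without culture 91 it was called downward for 21 (11.6%) and upward for 1 (6.73%). Without culture 91, 8 were higher and 9 lower after DMSO, against 22.4% and 23.5% of all genes tested. Higher and lower counts were 18 and 2 without FL culture 94 and 11 and 2 without FL culture 95. Without GM library 1 or 2, 2 were lower. The NF-kB site was in the windows of 11 of 24 of these genes (45.8%), against 6.4% of tested genes.

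Among the NF-kB genes, Map3k14, the kinase NIK of the non-canonical pathway, was at 1066, 317 and 394 CPM in FL and 149, 170.2 and 172 CPM in GM (1.86 ± 0.36, adjusted p = 0.0019). Malt1, a paracaspase, was at 338, 247 and 298 against 111, 109.8 and 108 CPM (1.43 ± 0.12, adjusted p = 8.5e-06). Both were higher in every FL library. Relb and Nfkb2, the subunits at the end of that pathway, were not called (0.64 ± 0.36 and 0.62 ± 0.37, adjusted p = 0.18 and 0.21). Both were called without FL culture 94, at 0.97 and 0.94. Across the alternative fits their differences ran from -0.13 to 0.97 for Relb and from -0.20 to 0.94 for Nfkb2. Tnip3, an inhibitor of the pathway, was lower in FL (-1.84 ± 0.14).

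The inhibitor of apoptosis genes, whose proteins AZD5582 targets, differed in 1 of 3 cases in these solvent controls. Birc2, which encodes cIAP1, was at 649.6, 273 and 325 CPM in FL and 131, 162 and 171 CPM in GM (1.43 ± 0.27, adjusted p = 0.0018), with all FL libraries above all GM libraries and 0.91 without culture 91. Birc3, which encodes cIAP2, was at 574, 244 and 286 against 284, 297 and 285 CPM (0.35 ± 0.25, adjusted p = 0.29). Xiap was at 87.8, 89.4 and 96.7 against 81, 85 and 122 CPM (-0.07 ± 0.16, adjusted p = 0.75). The groups overlapped for Birc3 and Xiap.

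Of 36 cell death and IAP genes, 12 were higher (33.3%, against 21.1% of all genes tested) and 5 lower (13.9%, against 18.3%). The median was 0.36, and 7, 8 and 7 were higher without GM libraries 1, 2 and 3. Pmaip1 (NOXA), a trigger of mitochondrial apoptosis, was higher in every FL library, at 588, 347 and 392 against 131, 151 and 148 CPM (1.63 ± 0.19, adjusted p = 7.5e-05). Bcl2a1d, an apoptosis inhibitor with near-identical copies that reads may not separate, differed by 1.23 ± 0.17. The inflammatory caspase genes Casp1 (-0.86 ± 0.12) and Casp4 (-1.21 ± 0.20) were lower in every FL library.

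Of 23 MHC class I genes, 8 were higher and 4 lower in FL after DMSO (median 0.37), against 21.1% and 18.3% of all genes tested, so the lower count is near the share of all genes. Without culture 91, 6 were higher and 8 lower. Without GM library 1 or 3, 4 were higher. Psmb9, a subunit of the immunoproteasome, was at 293, 209 and 224 CPM in FL and 130.3, 148 and 139.8 CPM in GM (0.80 ± 0.15, adjusted p = 0.0016). Calr (-1.15 ± 0.14), Pdia3 (-0.83 ± 0.12) and Canx (-0.75 ± 0.14), chaperones that load peptide, were lower in every FL library.

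Of 18 MHC class II genes, 3 were lower, near the 18.3% of all genes tested, and none was higher (median -0.24), where t0 had 6 higher and 2 lower. The count lower was 6 without FL culture 91 or 95 and 2 without FL culture 94 or GM library 1 or 2, and 1 was higher without culture 91. Ctss, the protease that trims the invariant chain, was at 1181, 819 and 1094 against 4191, 3972 and 4525 CPM (-2.04 ± 0.17, adjusted p = 5.2e-06). The ubiquitin ligase gene March1 was lower (-1.59 ± 0.45), with culture 91 the lowest library at 10.6 CPM. H2-DMb1, which has a close copy, was lower (-0.93 ± 0.34, adjusted p = 0.049), a call lost without FL culture 94 or GM library 1 or 2. H2-Ob was at 9.73, 43.8 and 58.4 against 19, 25.7 and 14.5 CPM (0.92 ± 0.50, adjusted p = 0.17) and was called at 1.32 without culture 91.

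Of 29 cross-presentation genes, 6 were higher, near the share of all genes, and 11 lower (37.9%, against 18.3% of all genes tested), with a median of -0.08. Cybb, the catalytic subunit of the phagocyte oxidase, was lower in every FL library, at 125, 229.5 and 173 against 1765, 1591 and 1577 CPM (-3.22 ± 0.21, adjusted p = 1.3e-06). Rab27a, which brings that oxidase to phagosomes, was higher in every FL library, at 76.4, 152 and 139 against 32.3, 36.2 and 40.9 CPM (1.75 ± 0.23, adjusted p = 1.7e-04).

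Interferon response genes were lower in FL in more cases than they were higher. Of 53 tested, 24 were lower (45.3%, against 18.3% of all genes tested) and 9 higher (17%, against 21.1%) after DMSO, with a median of -0.59. At t0, 14 were lower and 15 higher, with a median of 0.00. The change itself was called downward for 7 (against 1.01% of all genes tested) and upward for none (0.575%), and without culture 91 for 34 (11.6%) and 2 (6.73%). Without that library 32 were lower and 7 higher after DMSO, and the count higher was 4, 6 and 5 without GM libraries 1, 2 and 3.

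Rtp4 was at 1.6, 3.01 and 3.64 CPM in FL and 36.9, 48.6 and 40.4 CPM in GM (-3.92 ± 0.31, adjusted p = 4.7e-06). Oas1a and Oas1g, sensors of double-stranded RNA with near-identical copies, differed by -2.61 ± 0.18 and -3.31 ± 0.32. Irf7, the factor that amplifies type I interferon, was at 6.84, 8.97 and 20.7 against 30.6, 42.7 and 40.4 CPM (-1.63 ± 0.38, adjusted p = 0.0058). The FL libraries lay below the GM libraries in all 4 genes.

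The genes of the guanylate-binding proteins Gbp5 and Gbp4 went the other way. Gbp5 was at 526, 329 and 353 CPM in FL and 82.8, 101 and 75.1 CPM in GM (2.22 ± 0.20, adjusted p = 9.2e-06), and Gbp4 at 248, 77.9 and 90.9 against 20.4, 21 and 15.5 CPM (2.87 ± 0.39, adjusted p = 1.8e-04). Both have close copies. Culture 91 was the highest library in each, and cultures 94 and 95 also lay above all GM libraries.

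More pattern recognition receptors were lower in FL than higher. Of 28 receptor genes, 14 were lower (50%, against 18.3% of all genes tested) and 4 higher (14.3%, against 21.1%). The median was -1.36, and t0 had 16 lower and 5 higher. Tlr2, the receptor for bacterial lipoproteins, was at 21.4, 19.6 and 26.6 against 332, 259 and 234 CPM (-3.61 ± 0.18, adjusted p = 4.9e-07), and Tlr4, the endotoxin receptor, at 6.56, 11.1 and 12 against 65.3, 63.3 and 71.1 CPM (-2.75 ± 0.20). The endosomal Tlr7 (-3.72 ± 0.30) and Tlr8 (-5.59 ± 0.33) were lower too. Every FL library lay below every GM library in these 4 genes.

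Clec4d, a receptor for mycobacterial glycolipid, was lower (-4.03 ± 0.22), more than at t0 (-2.34 ± 0.21), and its change of -1.69 ± 0.28 was called (adjusted p = 0.017) but not without GM t0 library 2 (0.059) or 3 (0.057). The cytosolic sensors Nod2, at 273, 107 and 124 against 40, 39 and 33.9 CPM (2.16 ± 0.29, adjusted p = 1.8e-04), and Aim2, at 57.9, 83.2 and 83.7 against 43.8, 44.1 and 40.4 CPM (0.81 ± 0.15, adjusted p = 0.0013), were higher in every FL library.

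Of 30 tested transcription factors of dendritic cell lineages, 11 were lower and 6 higher (median 0.13), against 18.3% and 21.1% of all genes tested. Without FL culture 94 the counts were 11 and 11. Maf, a factor of macrophages, was at 4.53, 7.53 and 6.38 against 71.5, 70.7 and 128 CPM (-3.87 ± 0.28, adjusted p = 2.3e-06). Zeb2, a repressor needed for monocytes and for type 2 conventional dendritic cells, was at 19.3, 27.4 and 27.6 against 198, 183 and 220.0 CPM (-3.02 ± 0.22, adjusted p = 2.5e-06). Bhlhe41 (-3.00 ± 0.27) and Klf4 (-1.06 ± 0.20), which act in macrophages and monocytes, were lower as well. Every FL library lay below every GM library in Maf and Zeb2.

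More growth factor receptors were lower in FL than higher. Of 18, 8 were lower (44.4%, against 18.3% of all genes tested) and 4 higher (22.2%, near the 21.1% of all genes). The median was -0.32, and the higher count was 1, 2 and 2 without GM libraries 1, 2 and 3. Tgfbr2, the receptor that binds TGF-beta, was at 12.2, 19.7 and 26.8 against 129, 117 and 129 CPM (-2.67 ± 0.27, adjusted p = 2.6e-05), and its signalling partner Tgfbr1 differed by -1.29 ± 0.17. Tnfrsf1a, the receptor TNFR1, was at 54.3, 54.5 and 52.7 against 169, 143 and 131 CPM (-1.46 ± 0.13, adjusted p = 8.9e-06). Il1rl1, the receptor for interleukin 33 that mast cells and basophils carry, was at 4.31, 70 and 42.7 against 6.94, 9.03 and 6.65 CPM, and its call (2.37 ± 0.68, adjusted p = 0.017) was lost without FL culture 94 or GM library 1 or 3. For Il1rl1 culture 91 lay below the GM libraries and the other FL cultures above them. The FL libraries lay below the GM libraries for the TGF-beta and TNF receptors.

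Of 20 tested cytokine genes, 5 were lower in FL (25%, against 18.3% of all genes tested) and 2 higher (10%, against 21.1%). The median was 0.24, and 4 were higher when any 1 FL culture was left out. Il1a, an alarm cytokine, was at 0.962, 2.5 and 5.37 against 37.8, 47.4 and 40.4 CPM (-3.81 ± 0.46, adjusted p = 7.9e-05). Il1rn, the antagonist of the same receptor, was at 116, 89 and 87.4 against 445, 462 and 457 CPM (-2.22 ± 0.17, adjusted p = 3.2e-06), where t0 had -3.79 ± 0.18, and its change of 1.56 ± 0.23 (adjusted p = 0.013) was not called without GM t0 library 2. Csf1, the ligand of the M-CSF receptor, differed by -1.64 ± 0.27 and Il18, which acts on T and NK cells, by -1.56 ± 0.31. In these 4 genes every FL library lay below every GM library.

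Of 22 tested chemokine genes, 12 were lower in FL (54.5%, against 18.3% of all genes tested) and 1 higher (4.55%, against 21.1%). The median was -1.65. Cxcl14 was at 0.285, 0.65 and 0.301 CPM in FL and 18.7, 17 and 19.5 CPM in GM (-5.48 ± 0.41, adjusted p = 2.9e-06). Its change of -2.65 ± 0.56 since t0 was called (adjusted p = 0.041), but not without FL t0 culture 91 or 95, FL DMSO culture 95 or any one of the GM libraries, nor with the fixed replicate block (0.12). Ccl2, which attracts monocytes, was at 3.49, 9.72 and 10.2 against 37.8, 40.3 and 27.7 CPM (-2.17 ± 0.34), and Cxcl3, which attracts neutrophils, at 2.96, 5.31 and 3.04 against 19.6, 24.7 and 29.5 CPM (-2.71 ± 0.43). Ccl5, which attracts T cells, was the member called higher, at 4162, 1067 and 1026 against 769, 794 and 801 CPM (1.40 ± 0.45, adjusted p = 0.027), with culture 91 far above the other libraries. It was at 0.37 without that culture (adjusted p = 0.079) and was not called without any one of the GM libraries either, while 3 chemokines were higher without FL culture 94.

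Of 28 tested chemoattractant receptor genes, 14 were lower (50%, against 18.3% of all genes tested) and 6 higher (21.4%, near the 21.1% of all genes). The median was -1.19. Cx3cr1, a receptor of monocytes and macrophages, was at 0.285, 0.513 and 0.74 against 25.1, 24.6 and 18.6 CPM (-5.44 ± 0.58, adjusted p = 3.6e-05). Fpr1, the receptor for bacterial formyl peptides, was at 1.78, 6.37 and 6.93 against 108, 96.1 and 82.5 CPM (-4.24 ± 0.45), and C3ar1, the receptor for a complement fragment, at 19.8, 41.4 and 36.2 against 198, 203 and 258 CPM (-2.76 ± 0.26). No FL library reached the GM level of any of these, and the higher members included Xcr1 and Ccr9.

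**Figure D4:**
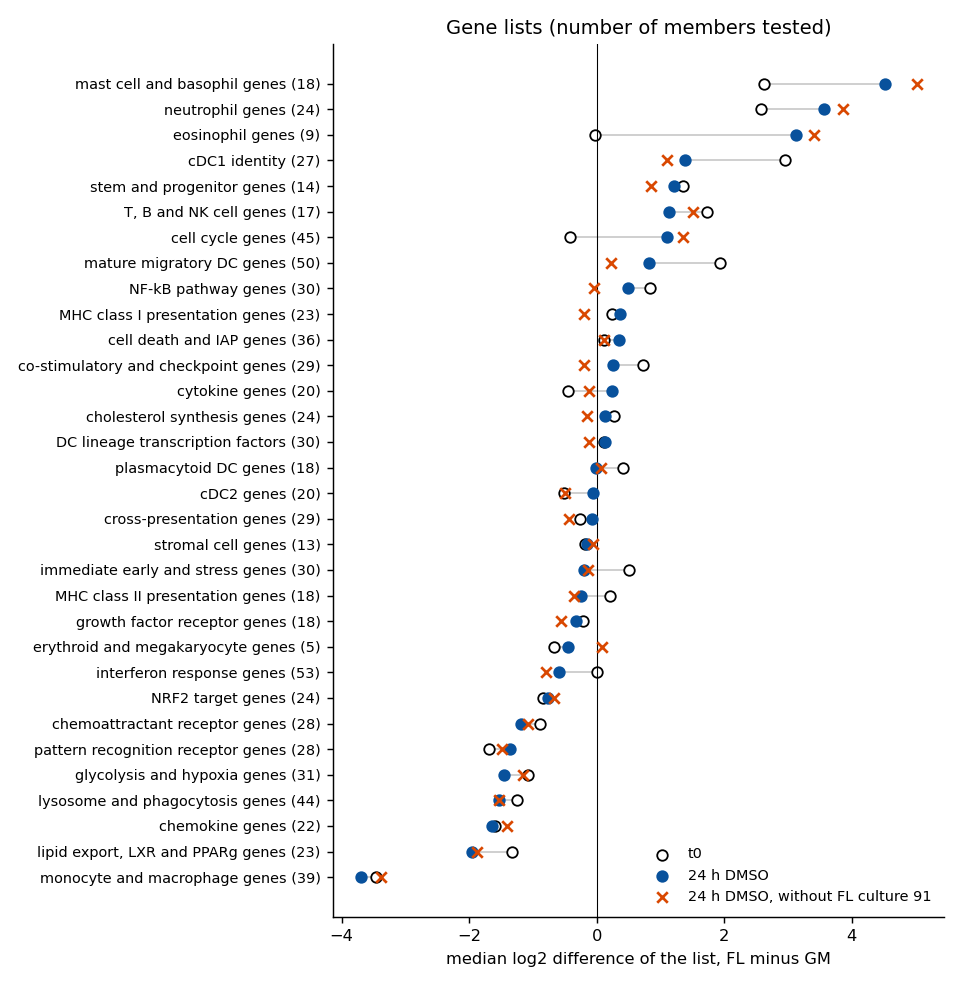
Median log2 difference (FL minus GM) over the tested members of each gene list at t0, after DMSO, and after DMSO without culture 91; the vertical line marks 0. Macrophage, lipid and lysosome lists lie below 0 in all 3 fits, granulocyte lists lie above it after DMSO, and the cell cycle list moves from -0.41 at t0 to 1.10 after DMSO and 1.36 without culture 91.

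More cell cycle genes differed between the cultures after DMSO than at t0. Of 45 genes, 1 was higher and 1 lower in FL at t0 (median -0.41), against 20.1% and 19.4% of all genes tested. After DMSO 19 were higher (42.2%, against 21.1%) and none lower (against 18.3%), with a median of 1.10. The change was called upward for 1 gene (against 0.575% of all genes tested), and for 42 without culture 91 (6.73%). Without that library 42 were higher after DMSO (against 22.4% of all genes tested) and none lower (against 23.5%). Leaving out FL culture 94 or 95, or GM library 1 or 3, gave 8 higher, GM library 2 gave 12, and FL culture 94 also gave 2 lower. Over all genes tested, 3705 of 16993 were higher without FL culture 94 and 3081 of 17071 without FL culture 95. These counts were 2265 of 17209, 2605 of 17189 and 2676 of 17221 without GM libraries 1, 2 and 3.

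Cenpa, the histone that marks centromeres, had the narrowest spread: 78.4, 78.7 and 82 CPM in FL and 89.1, 86.1 and 89.1 CPM in GM at t0, and 76.4, 78.6 and 78.2 CPM in FL against 28.8, 32.2 and 32.1 CPM in GM after DMSO. Cenpa levels in FL were alike at both times, unlike the summed level of the list, and those in GM were lower after DMSO. The difference after DMSO was 1.32 ± 0.09 (adjusted p = 2.2e-06) and its change 1.47 ± 0.13 (adjusted p = 0.0014), both called in each fit that left out 1 library.

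Mki67, a marker of cycling cells, was at 289, 273 and 266 against 317, 273 and 420.2 CPM at t0 and 41.8, 250.4 and 166 against 62.1, 77.5 and 46.8 CPM after DMSO. Culture 91 lay below the GM libraries, and cultures 94 and 95 lay above them. Its difference was 1.30 ± 0.46 (adjusted p = 0.044), 1.71 without culture 91, and not called without any one of the other DMSO libraries. Uhrf1 (1.23 ± 0.22), Hells (1.49 ± 0.30) and the histone gene H2afz (1.27 ± 0.17), which act on chromatin during replication, were higher in every FL library. E2f1 (-0.52 ± 0.37) and Pcna (-0.33 ± 0.25) did not pass the test, but were called lower without FL culture 94. After DMSO the summed level of the list ran from 1286 to 2934 CPM among the FL libraries, against 989 to 1180 CPM in GM. At t0 it was 3766 to 3976 CPM in FL and 4368 to 5083 CPM in GM, so it was lower after DMSO in both culture types.

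Glycolysis genes were lower in FL at both times. Of 31 glycolysis and hypoxia genes, 25 were lower and 2 higher after DMSO (median -1.46), against 18.3% and 21.1% of all genes tested. At t0, 22 were lower and 3 higher, against 19.4% and 20.1%. Without GM library 1, 1 was higher. Pgam1, at 29.1, 29.5 and 35.4 against 141, 173 and 109 CPM (-2.17 ± 0.18), and Pfkl, at 25.8, 30.2 and 37.5 against 184, 231 and 135 CPM (-2.56 ± 0.22), encode enzymes of the pathway. The glucose transporters went in opposite directions: Slc2a1 was at 23.5, 33.6 and 36.2 against 170.4, 182 and 113 CPM (-2.31 ± 0.22, adjusted p = 1.5e-05) and Slc2a3 at 13.5, 42.7 and 26.3 against 3.47, 3.41 and 5.18 CPM (2.78 ± 0.35, adjusted p = 1.1e-04).

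P4ha1, a collagen prolyl hydroxylase, was lower in FL (-2.79 ± 0.27). Pfkfb3, which activates glycolysis, was higher (1.59 ± 0.42, and 0.63 without culture 91), a call lost without GM library 1 (adjusted p = 0.055). Of 24 tested NRF2 targets, 12 were lower (50%, against 18.3% of all genes tested) and 1 was higher (4.17%, against 21.1%). The median was -0.76. Hmox1, heme oxygenase 1, was at 30.3, 40.9 and 46.6 against 307, 272 and 314 CPM (-2.92 ± 0.19, adjusted p = 1.2e-06). The iron store Fth1 (-2.20 ± 0.16), the peroxidase Prdx1 (-1.97 ± 0.17) and the glutathione transferase Gstm1 (-2.59 ± 0.24) were lower in every FL library. Catalase (Cat) was the member called higher, at 0.55 ± 0.14, a call lost without GM library 1 or 2.

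Granulocyte genes were higher in FL cultures, and most of all in culture 94. Over all genes tested, 21.1% were higher and 18.3% lower in FL after DMSO. Of 24 neutrophil genes, 19 were higher in FL after DMSO (79.2%) and 2 lower (8.33%), with a median of 3.57, and 17 and 2 at t0. Their summed level was 2559 to 12521 CPM in FL and 1010 to 1242 CPM in GM. Of 18 tested mast cell and basophil genes, 16 were higher (88.9%) and none lower (median 4.52), with a summed level of 1110 to 3602 CPM against 735 to 915 CPM. Of 9 eosinophil genes, 7 were higher (77.8%) and none lower (median 3.12), although leaving out FL culture 94 gave 1 lower. Their summed level was 291 to 2744 CPM against 56.6 to 65.1 CPM. The part of these cells in the other gene groups was not tested.

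Prg2, the major basic protein of eosinophils, was at 237, 2282 and 1048 CPM in FL cultures 91, 94 and 95 and 11.5, 16.7 and 23.8 CPM in GM (6.10 ± 0.80, adjusted p = 1.5e-04). Epx, their peroxidase, was at 19, 201 and 99.7 against 1.04, 2.2 and 3.95 CPM (5.50 ± 0.84). Cpa3, a protease of mast cells and basophils, was at 111, 734 and 432 against 7.55, 9.26 and 8.15 CPM (5.68 ± 0.71, adjusted p = 1.1e-04). In each gene the order was culture 94, then 95, then 91, and all 3 lay above the GM libraries. The Mki67 values had the same order. Of the other fixed markers of mast cells and basophils, Mcpt8 and Ms4a2 were higher in every FL library. Tpsb2 was at 0.25, 23.1 and 7.37 against 0.478, 1.1 and 1.16 CPM, and Fcer1a at 0.0356, 18.2 and 4.44 against 0.366, 0.292 and 0.362 CPM. In both, culture 91 lay below the GM libraries and cultures 94 and 95 above them.

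The largest positive differences of the whole comparison included other genes of these cells: Cyp11a1 (7.11), Slc18a2 (7.08), Ctsg (6.95), Prg3 (6.79), Mcpt8 (6.38) and Ms4a3 (6.34). Mcpt8 belongs to a family of similar proteases. The granule protein genes Ltf, at 359, 1095 and 513 against 41.7, 46.4 and 82.4 CPM (3.53 ± 0.47), and Ngp, at 704, 2745 and 1272 against 92.8, 107 and 185 CPM (3.62 ± 0.54), were higher too. Stfa1, which has near-identical copies, differed by 4.69. The metalloproteases Mmp8 (-1.89 ± 0.39) and Mmp9 (-1.11 ± 0.24) were the 2 neutrophil genes that were lower in FL.

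Eosinophil genes included differences that changed between the times. Alox15, a lipoxygenase, was at 23.8, 54.6 and 39 against 35.3, 46.4 and 45.3 CPM at t0 and 8.2, 97.2 and 47.4 against 1.59, 2 and 2.31 CPM after DMSO, a change of 4.81 ± 0.90 (adjusted p = 0.026). Siglecf, a sialic acid receptor of eosinophils, was at 6.29, 9.69 and 5.86 against 89.7, 74.1 and 71.2 CPM at t0 and 8.8, 35.1 and 22.1 against 35.2, 33.8 and 24.9 CPM after DMSO, a change of 2.92 ± 0.55 (adjusted p = 0.026). In both the GM level after DMSO was below its t0 level. Each change call was lost without FL t0 culture 91 or 95 or any one of the 6 GM libraries, with adjusted p up to 0.084 for Alox15 and 0.08 for Siglecf.

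Of 14 tested stem and progenitor genes, 6 were higher in FL (against 21.1% of all genes tested) and 1 lower (against 18.3%). Their summed level was 649 to 799 CPM in FL and 314 to 407 CPM in GM, and 3 were higher without GM library 1 or 2. Without culture 91, 2 were lower, and none was lower without any one of the GM libraries. Myb, at 18.1, 75.4 and 39.5 against 1.73, 1.72 and 1.3 CPM (4.80 ± 0.51), and Gata2, at 7.73, 121 and 54 against 3.81, 5.08 and 5.13 CPM (3.70 ± 0.82), regulate blood progenitors. Defining genes of lymphoid and erythroid cells were low. Of 17 tested T, B and NK cell genes, 5 were higher (29.4%, against 21.1% of all genes tested) and 2 lower (11.8%, against 18.3%). The lower count was 1 without FL culture 95 or GM library 2 or 3 and 3 without GM library 1. The NK receptor Ncr1 was at most at 0.0342 CPM, and Cd3e of T cells at most at 0.959 CPM. The erythroid genes Hbb-bs and Alas2 had at most 0.0133 CPM.

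Plasmacytoid dendritic cell genes had 3 of 18 higher and 2 lower, below the 21.1% and 18.3% of all genes tested, with 5 higher without FL culture 91 or 94. Siglech was at 3.71, 3.56 and 8.55 CPM in FL and 0.155, 0.0398 and 0.145 CPM in GM (5.57 ± 0.63, adjusted p = 5.4e-05), and the gut-homing receptor Ccr9 at 5.2, 4.38 and 4.93 against 0.829, 1.55 and 0.916 CPM (2.13 ± 0.39, adjusted p = 0.0013). The FL libraries lay above the GM libraries in both, at levels of 3.56 to 8.55 CPM. The other fixed markers did not separate the groups. Tcf4 was at 30.8, 34.6 and 39.8 against 24.2, 31.2 and 30.9 CPM, and Ly6d at 0.713, 0.411 and 1.32 against 0.38, 0.597 and 0.868 CPM. The 2 list members called lower were Tlr7 (-3.72) and Irf7 (-1.63). Of 20 genes of type 2 conventional dendritic cells, 4 were higher and 4 lower, near the shares of all genes, with 11 lower without culture 91, where 23.5% of all genes were. The count higher was 2 without any one of the GM libraries.

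**Figure D5:**
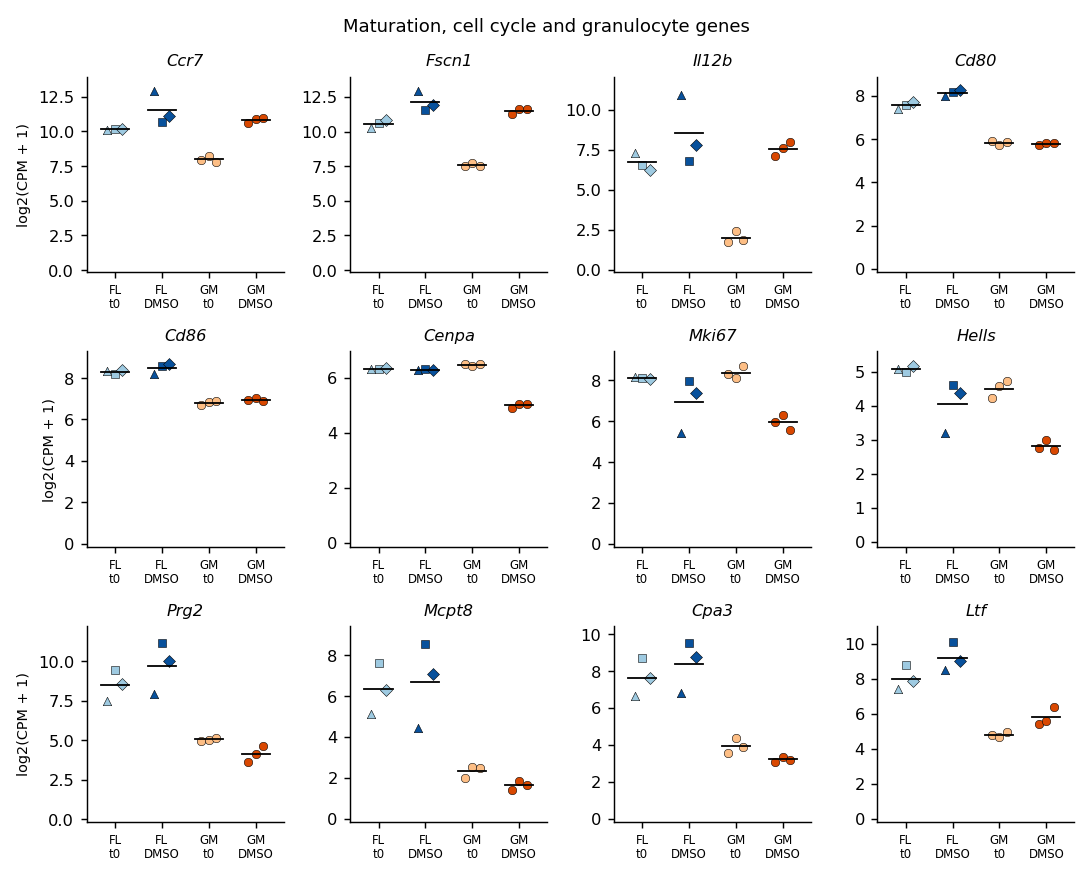
Log2(CPM + 1) of maturation, cell cycle and granulocyte genes in each library, with triangles, squares and diamonds for FL cultures 91, 94 and 95, circles for GM libraries and lines for group means. Culture 91 is the highest library for Ccr7, Fscn1 and Il12b after DMSO and the lowest FL library for Mki67, Hells, Prg2, Mcpt8, Cpa3 and Ltf. Cd80, Cd86 and Cenpa separate FL from GM in all libraries after DMSO.

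For the 16 genes named by size of change, the mean level moved by a larger fold between t0 and DMSO in GM than in FL in 15, the exception being Ear2. Of these genes, 8 went upward in FL relative to GM: Klrb1f (5.22), Car4 (5.15), Alox15, Wfdc21 (4.03), Slc39a2 (3.65), Ear2 (3.24), Adcy3 (3.24) and Adra2a (3.22). Klrb1f and Ear2 belong to families of similar genes. The change calls of Slc39a2 and Adcy3 held in each fit that left out 1 library, and those of the other 6 did not.

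Car4, a carbonic anhydrase, was at 0.941, 1.11 and 2.64 CPM in FL and 209, 179 and 165 CPM in GM at t0. After DMSO it was at 0, 1.16 and 1.48 CPM in FL and 2.47, 4.84 and 1.71 CPM in GM, so the FL levels stayed low and the GM levels had come down close to them. Slc39a2, a zinc transporter, was at 3.03, 3.07 and 4.17 against 36.1, 45 and 35.7 CPM at t0 and 1.89, 1.64 and 2.85 against 1.84, 2.73 and 1.21 CPM after DMSO (change 3.65 ± 0.42, adjusted p = 0.003). Adcy3, an adenylate cyclase, was at 0.235, 0.131 and 0.362 against 11.7, 11.2 and 9.03 CPM at t0 and 0.927, 0.65 and 0.548 against 2.74, 3.22 and 3.93 CPM after DMSO.

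Klrb1f, a lectin-like receptor gene, was at 8.03, 15.2 and 11.4 CPM in FL and 15, 15.9 and 14.5 CPM in GM at t0, and at 1.82, 24.3 and 9.95 and 0.169, 0.769 and 0.289 CPM after DMSO. Wfdc21, a secreted whey acidic protein family member, was at 7.33, 29 and 15.9 against 125, 95.8 and 103 CPM and then 15.9, 95.3 and 39 against 16.6, 27 and 13.6 CPM. Adra2a, an adrenergic receptor, was at 12.1, 14.6 and 16.4 against 104.99, 87.1 and 92.4 CPM and then 3.35, 23.2 and 18.6 against 12.6, 12.4 and 6.97 CPM, and its change was not called with the fixed replicate block (adjusted p = 0.08). In these 3 genes the GM libraries were lower after DMSO than at t0. Ear2, of the family named eosinophil-associated ribonucleases, was at 2.62, 3.19 and 3.36 against 569.7, 346 and 327 CPM and then 6.06, 21.7 and 21.6 against 274, 249 and 185 CPM. It was higher in GM at both times, whereas the eosinophil genes Prg2 and Epx were higher in FL after DMSO.

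In the other direction were Apol10b (-5.12), which has close copies, Mrc2 (-4.70), Gcsam (-4.70), Snx22, Insm1 (-4.00), Plekhs1 (-3.98), Cdhr1 (-3.84) and Grin2c (-3.81). The calls of Mrc2, Insm1, Cdhr1 and Grin2c held in each fit that left out 1 library. Insm1, a zinc finger transcription factor, was at 22.3, 30.2 and 34.3 CPM in FL and 1.02, 1.39 and 1.34 CPM in GM at t0, and at 46.8, 46 and 52.7 and 29.7, 33.4 and 37.5 CPM after DMSO (change -4.00 ± 0.26, adjusted p = 7.6e-05). Mrc2, a collagen receptor, was at 5.37, 9.47 and 10.7 against 0.263, 0.307 and 0.323 CPM at t0 and 27.5, 13.9 and 30.2 against 15.1, 29 and 21.6 CPM after DMSO (change -4.70 ± 0.52, adjusted p = 0.0025). In both the GM libraries were low at t0 and far higher after DMSO.

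Apol10b was at 5.37, 7.76 and 7.67 CPM in FL and 0.0329, 0.108 and 0.125 CPM in GM at t0, and at 148, 23.3 and 31.8 and 22.1, 37.5 and 32.2 CPM after DMSO, and its change was not called with the replicate block (adjusted p = 0.051 fixed and 0.16 random). Gcsam, a signalling gene of germinal centre B cells, was at 13.5, 4.17 and 9.64 against 0.23, 0.0902 and 0.143 CPM and then 22, 4.14 and 13 against 4.51, 6.53 and 6.63 CPM. The GM libraries of both were near 0 at t0 and well above it after DMSO. Plekhs1 was at 8.1, 7.79 and 8.25 against 0.345, 0.487 and 0.735 CPM and then 58.9, 15.8 and 25.5 against 23.2, 38.2 and 41.3 CPM, and Grin2c, a glutamate receptor subunit, at 7.25, 11.8 and 11.1 against 0.148, 0.361 and 0.179 CPM and then 31.9, 17.7 and 25.7 against 6.03, 10.4 and 7.83 CPM. With the random replicate block the changes of Car4 (adjusted p = 0.096), Gcsam (0.064) and Snx22 (0.1) were not called.

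Some genes were called in opposite directions at the 2 times. Cdhr1, a cadherin, was higher in FL at t0 (2.05 ± 0.30) and lower after DMSO (-1.79 ± 0.28), at 2.09, 2.56 and 1.77 against 0.279, 0.559 and 0.717 CPM and then 4.06, 3.46 and 4.44 against 12.8, 15.5 and 13 CPM. Ryr1, a calcium release channel, went from 1.21 ± 0.42 to -2.01 ± 0.45, and Enc1 from 1.31 ± 0.28 to -0.92 ± 0.28. Tppp3 (-1.33 ± 0.31 and 1.11 ± 0.32), the serotonin transporter gene Slc6a4 (-1.48 ± 0.29 and 0.99 ± 0.29) and the transporter gene Slc43a3 (-0.90 ± 0.21 and 0.85 ± 0.21) went from lower to higher. Cdhr1 kept both calls in each fit without 1 library. Ryr1 kept that after DMSO, but its t0 call was lost without FL t0 culture 91 or 95 or any one of the GM t0 libraries, and without the filter on low counts. The t0 calls of the other 4 held in each fit without 1 library, but the calls after DMSO were lost without GM library 3 or FL culture 94 for Enc1 and Slc6a4, without GM library 1 or 3 or FL culture 95 for Tppp3 and without GM library 1 for Slc43a3. With the fixed replicate block the changes of Ryr1 (adjusted p = 0.1), Tppp3 (0.08) and Enc1 (0.058) were not called.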

How the data were processed

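Bulk RNA-seq counts of 24 libraries were read, of which 12 enter the model: FL and GM cultures at t0 and after DMSO, 3 of each. The authors deposited read counts per gene; the submitters' processing notes name STAR 2.7.3a, HTSeq 0.12.4, DESeq2 1.30.1 and GRCm39, and per the labels' protocols the library kit keeps strand. The sources used here do not say which strand setting was used in counting, so genes that overlap on opposite strands are uncertain. Lines that name no gene held 10.98% to 15.767% of reads in the 12 libraries and were left out. Gene counts ran from 27012555 to 81007086 per library. Of 55414 gene lines, 52081 had a symbol in the reference table.

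Counts were fitted with edgeR 4.0.16 (R 4.3.3): TMM scaling, filterByExpr by group, 1 mean per group, robust quasi-likelihood tests and Benjamini-Hochberg adjustment over all 16516 genes tested, called at an adjusted p under 0.05. Log2 differences are FL minus GM with their standard errors. CPM values are scaled by TMM. In simulated counts for the DMSO comparison (15993 genes tested), 29 of 100 genes changed by a log2 of 1 and 68 of 100 changed by 2 were recovered, and 2 unchanged genes were called. The simulation gave all groups the same spread for a gene. In the data the biological coefficient of variation after DMSO was 0.469 in FL and 0.152 in GM. Recovery and false calls under such unequal spread were not simulated. No pair of libraries of a group agreed within sampling noise. The labels do not say that the 3 GM libraries came from separate animals.

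The members, 32 gene lists and tests were chosen with earlier results of these data known. Named genes are the 12 largest differences each way after DMSO and the 8 largest changes each way since t0, among called protein-coding genes with at least 10 CPM in a group (for the first, with groups that do not overlap), the 6 largest opposite calls, fixed panels of cDC1, macrophage, maturation and IAP genes, and, list by list, no more than 4 genes taken by smallest p plus no more than 2 of opposite sign. Ctsa, Lamp1, Gla, Glb1, Naglu and Sgsh were added for the promoter element, Mki67 after its values were seen, and marker genes of other cells from the fixed marker list. Of 205 genes named by the rule, 180 are reported. In FL the culture number in the titles pairs t0 with DMSO libraries, and their deviations from the group means correlated at 0.124 to 0.226. The GM libraries share only a replicate number (0.033 to 0.060). The alternatives tried were other size factors, no filter on low counts, DESeq2 1.42.0, limma 3.58.1 with voom, a test against a log2 difference of 1, other sets of libraries, a replicate block and leaving out each library. Ratios of summed counts have exact 95% intervals, which cover counting error only.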

Additional observations from a re-analysis of the deposited data

Results flagged for a closer look

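The genes named here are those of the text whose culture difference after DMSO differed from that at t0 by the test of the change itself, in edgeR with adjustment over all genes. Values are the change of the log2 difference, FL minus GM, from t0 to DMSO. Groups of 3 libraries are too small for a test of single outlying samples.

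Among genes of dendritic cells and macrophages the change was downward in FL relative to GM for Flt3 (-3.49), Irf8 (-2.60), Snx22 (-4.12), Apoe (-2.16), Adgre4 (-1.32), Lipa (-1.50), Tfeb (-1.12), Fscn1 (-2.26), Clec4d (-1.69) and Cxcl14 (-2.65). It was upward for Il1rn (1.56) and for Epcam (1.56), an adhesion molecule, which was at 24, 20.1 and 21.4 against 22.2, 34.4 and 30.8 CPM at t0 and 10.4, 8.93 and 8.49 against 3.87, 4.92 and 3.74 CPM after DMSO. The Adgre4 change was not called with the replicate block (adjusted p = 0.097 fixed and 0.082 random). The Epcam call was lost without FL t0 culture 95, GM t0 library 2 or 3 or GM DMSO library 1 or 3.

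Upward changes were also called for Cenpa (1.47), Siglecf (2.92), Alox15 (4.81), Klrb1f (5.22), Car4 (5.15), Wfdc21 (4.03), Slc39a2 (3.65), Ear2 (3.24), Adcy3 (3.24), Adra2a (3.22), Tppp3 (2.44), Slc6a4 (2.48) and Slc43a3 (1.75). Downward changes were called for Apol10b (-5.12), Mrc2 (-4.70), Gcsam (-4.70), Insm1 (-4.00), Plekhs1 (-3.98), Cdhr1 (-3.84), Grin2c (-3.81), Ryr1 (-3.22) and Enc1 (-2.22).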

How the results depend on the processing

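The count of genes called after DMSO was 6500 and ranged from 4725 to 7875 when 1 library was left out. It was 4232 with limma voom and quality weights by group, 3866 when only the 6 DMSO libraries entered the model and 1843 against a log2 difference of 1. The t0 count of 6530 ranged from 4936 to 5505 without 1 library. It was 9355 with the quality weights by group and 8690 when only the 6 t0 libraries entered the model. In these fits more genes were called at t0 than after DMSO. Against a log2 difference of 1 the t0 count was 2188. That stricter test also gave 13 changes of the culture difference, 1188 calls shared between the times and 224 called list members, where these were 261, 4425 and 448. The count of 261 changes ranged from 32 to 3139 without 1 library, and was 1077 with DESeq2, 835 with all 24 libraries in the model (152 upward and 683 downward) and 2978 without culture 91 at both times. Other size factors gave 6516, 6481 and 274 calls, and no filter on low counts gave 5697, 5823 and 286. Lgmn was at -0.72 without culture 91 at both times, and between -0.72 and 0.45 without 1 DMSO library. The cause of these shifts was not tested.

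The FL and GM libraries share no replicate number, so a replicate block bears on the change since t0 only. With the number as a fixed replicate block in edgeR 180 changes were called, and with a random one in limma voom 493, beside 6488 and 7027 calls after DMSO and at t0. Of 34 named changes, 26 kept the call with the fixed block and 29 with the random one. Of the called genes named in the text, 111 of 161 kept the call after DMSO under every alternative that was run, and for the change since t0, 5 of 34 did: Slc39a2, Mrc2, Insm1, Cdhr1 and Grin2c.

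Leaving out 1 library leaves a group with 2, whose spread is then pooled with the other groups. FL DMSO libraries have the fewest counts and the widest spread, which limits the size of difference that can be detected.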

Other observations

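Of 24 tested genes of cholesterol synthesis, 5 were higher in FL after DMSO and 6 lower, near the 21.1% and 18.3% of all genes tested, with a median log2 difference of 0.14. Fdps, an enzyme of the shared isoprenoid part of the pathway, was at 63.7, 97.7 and 56 CPM in FL cultures 91, 94 and 95 and 35.5, 27.9 and 28.8 CPM in GM libraries 1, 2 and 3 (1.24 ± 0.19, log2 difference ± SE, adjusted p = 4.4e-04), and Tm7sf2, a sterol reductase, at 20, 15.1 and 17.9 against 8.01, 7.76 and 8.46 CPM (1.13 ± 0.14, adjusted p = 1.2e-04). Dhcr7, which makes cholesterol in the last step, was at 7.77, 15.6 and 15.3 against 39.3, 33.3 and 34.6 CPM (-1.47 ± 0.21, adjusted p = 3.1e-04), and Ebp, a sterol isomerase, at 17.5, 23 and 26.8 against 59.2, 53.2 and 49.6 CPM (-1.26 ± 0.14, adjusted p = 5.8e-05). The groups did not overlap in these 4 genes. The higher count was 3 without any one of the GM libraries, and the lower count was 2 without FL culture 95 or GM library 1 and 4 without GM library 2.

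Of 30 tested immediate early and stress genes, 5 were higher (16.7%, against 21.1% of all genes tested) and 10 lower (33.3%, against 18.3%). The median was -0.20. Jun, a subunit of AP-1, was at 18.8, 29.5 and 30.3 against 70.6, 66.9 and 46.9 CPM (-1.23 ± 0.19, adjusted p = 5.3e-04), and Fosl2, another subunit, at 18.7, 34.6 and 32.5 against 85.9, 76.7 and 80.1 CPM (-1.50 ± 0.21). Atf3, a stress-induced repressor, differed by -1.78 ± 0.27, and Nr4a2, a nuclear receptor, went the other way, at 104, 35.3 and 34.3 against 7.13, 10.5 and 16.1 CPM (2.37 ± 0.47, adjusted p = 0.0024). Among genes of cells other than dendritic cells, Nkg7, a granule gene of NK and T cells that basophils also express, was at 0.499, 6.37 and 3.18 against 0, 0.0133 and 0.0241 CPM. The megakaryocyte integrin gene Itga2b (4.25 ± 0.63) and the adhesion gene Pecam1 (2.74 ± 0.58) were higher in FL, and the stromal gene Dcn was lower, at 0, 0 and 0 against 0.127, 0.995 and 0.337 CPM, a call lost without FL culture 95 or GM library 2. Csn2, a milk casein gene, was at 18.1, 14.1 and 10.3 CPM in FL and 0.211, 0.239 and 0.169 CPM in GM (6.06 ± 0.52, adjusted p = 7.9e-06).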
